A study of Homo sapiens with 18 samples.

Results

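A30 is a line of HEK cells, an established human embryonic kidney line, that was treated with CRISPR, selected in puromycin, grown from a single colony and labelled ATXN1L-KO. Its 3 arrays, replicates 1 to 3, were compared with the 9 arrays of the ATXN1L wild-type lines, so 12 of the 18 arrays of the series enter the comparison. The wild-type lines, with 3 arrays each, are the parental HEK cells and N4 and N8, which went through CRISPR as controls. The other 6 arrays, 3 each, belong to A10 and B21, further lines labelled ATXN1L-KO, which were set against A30 directly. All lines were grown in the same medium, DMEM with serum, and the labels name no other treatment. The labels do not give the position of the edit in ATXN1L. A30 is 1 clone, so an effect of its genotype and a property of that clone cannot be told apart. The tests cover the spread between cultures, and an exact permutation test of 1 line against 3 cannot go below p = 0.25.

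CIC is a transcriptional repressor. ATXN1L, and its paralogue ATXN1, bind CIC and are known to protect it from loss. Among the genes CIC represses are the PEA3 group of ETS transcription factors (ETV1, ETV4 and ETV5) and feedback inhibitors of the MAP kinase pathway of the SPRY and DUSP families, which are otherwise switched on by growth factor signalling. The comparison asks which genes differ in a line in which ATXN1L was edited.

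The gene named by the edit was read first. The A30 arrays gave 7.43, 7.31 and 7.42 for ATXN1L, against 7.05 to 7.29 in wild type, with a median of 7.16. The A30 arrays were all above the 9 wild-type arrays, by 0.22 ± 0.07 (difference of log2 signals ± SE, as in all that follows; adjusted p = 0.016 by limma with Benjamini-Hochberg adjustment). The call was lost without A30 replicate 1 (adjusted p = 0.0785) and without A30 replicate 3 (adjusted p = 0.0655). A probe set can read RNA that still carries the edit, so this signal does not check the label. ATXN1 gave 6.99, 6.95 and 7.02 in A30 against 6.59 to 7.10 (median 6.83) in the wild-type arrays, and CIC gave 6.90, 6.81 and 6.96 against 6.75 to 6.99 (median 6.91). Both overlapped the wild-type range, with differences of 0.12 ± 0.11 (adjusted p = 0.461) and −0.01 ± 0.06 (adjusted p = 0.934). Of 15 listed members and partners of the ATXN1 and CIC complexes, 11 were measured above the filter, and ATXN1L and SIN3B, a co-repressor scaffold, were called higher. SIN3B gave 7.37, 7.41 and 7.53 in A30 and 6.96 to 7.28 (median 7.16) in wild type, a difference of 0.30 ± 0.06 (adjusted p = 0.00103). HDAC1, a histone deacetylase, was called lower by −0.20 ± 0.06, a call lost without A30 replicate 1 (adjusted p = 0.0668) and without A30 replicate 2 (adjusted p = 0.0645). RBM17, a splicing factor, was called lower by −0.20 ± 0.07, and lost that call without A30 replicate 1 (adjusted p = 0.177) and under several other omissions. The median difference of the 11 was −0.02. The shares called higher and lower were 18.2% and 18.2%, beside 12.9% and 16.3% of all tested genes.

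All signals are log2 values of 1 probe set per gene. Array medians lay between 5.09 and 5.18. The median SD over genes was 0.11 among the A30 arrays and 0.14 among the 9 wild-type arrays. Replicate 1 arrays of the wild-type lines deviated from their line means in the same direction, with correlations of 0.35 to 0.51, and replicate 1 of A30 correlated with them at 0.17, 0.18 and 0.24. These correlations are across genes, and genes are not independent replicates. Each replicate number is present in every line. Genes above a filter value of 5.6 in 3 or more arrays were tested, and only 2 of them passed through A30 arrays alone. Others, among them MMP13, MMP12 and EDN1 described below, passed only through A30 and B21 arrays. The labelled tissue was checked against marker lists. Of 21 kidney and nephron markers, 14 had a probe set with a symbol, and 12 of these passed the filter. Among them were the renal transcription factors WT1 and LHX1, with differences of 0.03 and 0.10. Of 14 leukocyte, 10 endothelial and 9 keratinocyte markers, 5, 7 and 6 had one, and 2, 3 and 1 passed. Neural, epithelial and fibroblast markers also passed, 12 of 18, 16 of 22 and 10 of 12 with a probe set. The check therefore does not single out kidney. Listed genes without such a probe set, here and in all other lists, were not measured. The mean levels of the leukocyte, endothelial and keratinocyte lists are given with the cell type markers.

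Across the 9686 tested genes, 29.3% were called different in A30 at an adjusted p under 0.05, 12.9% higher and 16.3% lower. All 3 A30 arrays lay above all 9 wild-type arrays for 6.87% of genes and below them for 9.4%. A long stretch of chromosome 4, from 75 to 146 Mb of hg38, was low in A30, and its 125 tested genes were kept apart. Among the 9561 genes outside it, 1253 were called higher (13.1%) and 1467 lower (15.3%), with a median difference of 0.01 and quartiles at −0.13 and 0.14. Most calls were small. Of the called genes, 94 rose and 183 fell by at least 1.5-fold, and 21 rose and 35 fell by at least 2-fold.

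The wild-type lines also differed among themselves. Outside the region N8 differed from the parental cells in 1397 genes (14.6%) and from N4 in 1319 (13.8%), while N4 differed from the parental cells in 52 (0.544%). A30 differed from the parental cells in 2316 genes (24.2%), from N4 in 2094 (21.9%) and from N8 in 2417 (25.3%). Without N4 replicate 2 or N4 replicate 3, N8 differed from N4 in 848 and 782 genes, and without parental replicate 3 it differed from the parental cells in 860. The count for N4 against the parental cells fell to between 9 and 34 when 1 of their own arrays was left out, and was 114 without A10 replicate 1, which enters only through the shared spread. On line means, which give no test, A30 lay at least 1.5-fold above the highest wild-type line in 43 genes and at least 1.5-fold below the lowest in 97.

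Outside the region, the 12 largest rises were taken among called genes whose A30 arrays all lay above all wild-type arrays. ANKRD1 and CCL2 rose as much but overlapped, and are described further on. TNC, FN1, PAMR1 and EDIL3, matrix and secreted proteins, were among the 12. For TNC the values were 8.16, 7.91 and 7.97 in A30 and 6.01 to 6.62 in wild type, with a median of 6.19. FN1 read 10.28, 10.06 and 10.02 in A30 and 8.06 to 9.40 in the 9 wild-type arrays, with a median of 8.40. The A30 arrays gave 7.15, 7.28 and 7.39 for PAMR1, against 5.32 to 5.82 in wild type, with a median of 5.62. For all 3 genes the A30 arrays stood apart from and above every wild-type array. TNC, tenascin C, a matrix glycoprotein that modulates cell adhesion, rose by 1.80 ± 0.08, or 3.49-fold (adjusted p = 3.35e-10). FN1, fibronectin, the main adhesive glycoprotein of the provisional matrix, rose by 1.58 ± 0.20 (adjusted p = 2.15e-05), and PAMR1, a secreted protein with a peptidase-like domain, by 1.71 ± 0.10 (adjusted p = 5.64e-09). EDIL3, a secreted integrin ligand, read 9.18, 8.98 and 9.04 in A30 against 7.61 to 8.16 (median 7.87) in wild type, a rise of 1.19 ± 0.09 (adjusted p = 8.36e-08). FN1 had the widest wild-type range of these genes.

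Secreted proteases and signalling molecules were among the same 12 largest rises. MMP13, a collagenase, read 5.72, 5.57 and 5.75 in A30 and 3.84 to 5.06 (median 4.23) in wild type, a rise of 1.36 ± 0.16 (adjusted p = 9.4e-06). MMP12, a macrophage elastase of the same gene cluster on chromosome 11, read 5.84, 5.87 and 6.40 and 4.49 to 5.45 (median 4.75), a rise of 1.20 ± 0.14 (adjusted p = 1.16e-05). The wild-type arrays of both proteases lay below the filter value of 5.6, where signal was not checked against background. EDN1, the precursor of the vasoconstrictor peptide endothelin, read 5.67, 5.89 and 6.28 against 4.17 to 5.22 (median 4.67) and rose by 1.26 ± 0.19 (adjusted p = 0.000127). The wild-type arrays of EDN1 lay below 5.6 as well. So did the A10 arrays of MMP13, MMP12 and EDN1, and these genes entered the test only through A30 and B21 arrays. CCBE1, a secreted protein needed for lymphatic vessel growth, read 7.96, 7.84 and 8.14 against 6.07 to 7.47 (median 6.76) and rose by 1.24 ± 0.09 (adjusted p = 7.49e-08). In CCBE1 the wild-type lines were themselves ordered, with means of 7.28 in parental cells, 6.84 in N4 and 6.11 in N8.

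The remaining large rises were in cellular proteins and a non-coding RNA. MYOF, myoferlin, a membrane repair protein, read 8.67, 8.83 and 8.89 in A30 against 6.70 to 8.08 (median 7.21) in wild type and rose by 1.47 ± 0.19 (adjusted p = 3.21e-05). SHISA2, which holds back Wnt and FGF receptors in the endoplasmic reticulum, read 9.34, 9.16 and 9.11 against 7.47 to 8.44 (median 8.03) and rose by 1.21 ± 0.06 (adjusted p = 3.35e-10). The long non-coding RNA LINC00673 read 6.87, 7.27 and 7.09 against 5.6 to 6.0 (median 5.94), a rise of 1.20 ± 0.10 (adjusted p = 1.84e-07). None of these arrays overlapped. MAP7D2, a microtubule-binding protein, rose by 1.20 ± 0.16 (adjusted p = 3.7e-05), with 9.12, 9.17 and 9.15 in A30 against line means of 8.08 in parental cells, 8.65 in N4 and 7.11 in N8, so its distance to N4 was much smaller than to N8.

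**Figure D1:**
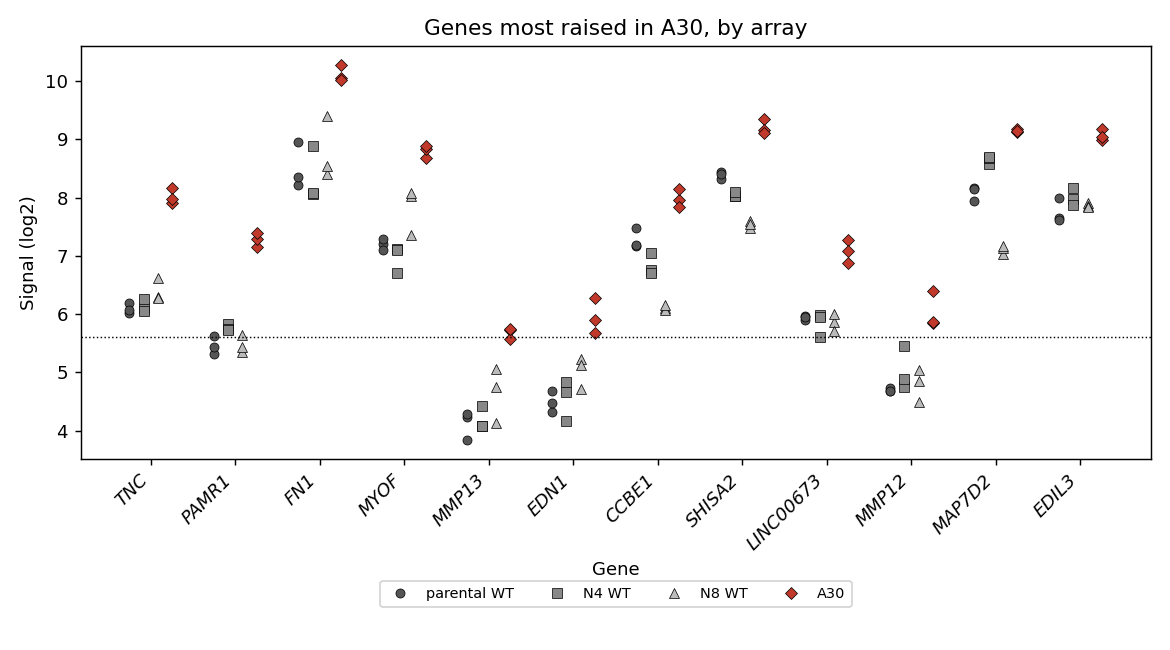
Signal (log2) of the 12 genes with the largest rises in A30 whose 3 A30 arrays all lay above the 9 wild-type arrays, 1 point per array, with the filter value of 5.6 as a dotted line. The red A30 points sit above the grey wild-type points for each gene, and N8 lies apart from the other wild-type lines for CCBE1 and MAP7D2.

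The lists around these genes moved in part. Of 42 listed matrix and matricellular genes, 19 were tested, 6 rose (31.6%), 4 fell (21.1%), and the median difference was 0.10 against 0.01 over all tested genes outside the region. Shares in brackets, here and in the later lists, are read beside the 12.9% of all tested genes called higher and 16.3% called lower. Besides the 4 named above, THBS1, thrombospondin 1, rose by 0.92 ± 0.19 (adjusted p = 0.00152) and LOXL2, a collagen cross-linking oxidase, by 0.30. The fallers were LOX, the related lysyl oxidase (−0.44), LUM, a collagen-binding proteoglycan (−0.34 ± 0.11), and the fibrillin FBN2 and fibulin FBLN5 (−0.25 and −0.23). The LUM call was lost without A30 replicate 2 (adjusted p = 0.173). Of 29 integrins and adhesion receptors 7 were tested, 4 rose (57.1%), 1 fell (14.3%), and the median was 0.30. L1CAM, a neural cell adhesion molecule, read 6.02, 5.86 and 5.78 against 5.01 to 5.90 (median 5.30) and rose by 0.57 ± 0.11 (adjusted p = 0.000849). CD44, the hyaluronan receptor, rose by 0.48 ± 0.10 and ALCAM, an immunoglobulin-type adhesion receptor, by 0.40 ± 0.09. SDC1, a heparan sulfate proteoglycan, fell by 0.24 ± 0.07, a call lost without A30 replicate 2 (adjusted p = 0.0683) and without A30 replicate 3 (adjusted p = 0.0732).

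Genes responsive to the co-activator YAP with TEAD factors were tested for 10 of 18 members, with 3 called higher (30%), 1 lower (10%) and a median of 0.19. Beside MYOF these were ANKRD1, a nuclear ankyrin repeat protein, and TEAD1 itself. ANKRD1 read 9.01, 9.09 and 9.19 in A30 and 6.44 to 9.85 (median 7.36) in wild type, so its A30 values lay within the wild-type range although the difference of 1.26 ± 0.43 was called (adjusted p = 0.0351). Each A30 array was needed for that call, with adjusted p of 0.0868, 0.0954 and 0.101 without replicates 1, 2 and 3, and so were parental replicate 2 (0.0503) and N4 replicate 1 (0.0568). CCN2, a matricellular YAP target, gave 0.80 ± 0.41 and was not called (adjusted p = 0.152). TEAD1 rose by 0.24 ± 0.06, a call lost without A30 replicate 3 (adjusted p = 0.0564), and AXL, a receptor tyrosine kinase, fell by 0.28 ± 0.08, lost without A30 replicate 1 (adjusted p = 0.0505) and replicate 3 (adjusted p = 0.0783).

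Among 25 actin and contractile genes 14 were tested, 3 rose (21.4%) and 1 fell (7.14%), with a median of 0.09. ZYX, zyxin, a focal adhesion protein, read 7.88, 7.84 and 7.74 in A30 against 7.06 to 7.63 (median 7.14) in wild type and rose by 0.58 ± 0.08 (adjusted p = 4.92e-05). VCL, vinculin, which links integrins to actin, rose by 0.32 ± 0.07, and CALD1, caldesmon, by 0.23 ± 0.05. The member that fell was PDLIM5, a cytoskeletal adaptor inside the chromosome 4 region.

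For CIC targets, 17 of 26 listed genes were tested, 7 were called higher (41.2%, beside 12.9% of all tested genes), 1 lower (5.88%, beside 16.3%), and the median difference was 0.20. The list was written from general knowledge, which may include work on these lines, so its direction is not independent evidence. For ETV4 the values were 6.97, 6.76 and 7.05 in A30 and 5.37 to 6.66 in wild type, with a median of 5.67. ETV5 read 5.98, 6.06 and 6.09 in A30 and 4.62 to 5.54 in the 9 wild-type arrays, with a median of 4.89. These wild-type values of ETV5 lay below the filter value of 5.6, where signal was not checked against background. The PEA3 factor ETV4 rose by 1.05 ± 0.22 (adjusted p = 0.00162) and ETV5 by 0.99 ± 0.18 (adjusted p = 0.000657), with no overlap between A30 and wild-type arrays in either. ETV1, the third PEA3 factor, read 5.92, 5.72 and 6.15 against 4.95 to 5.87 (median 5.6), with overlap. Its difference of 0.46 ± 0.16 was called (adjusted p = 0.0436), but not without A30 replicate 1 (0.11), A30 replicate 3 (0.199), parental replicate 1 (0.0686), N4 replicate 1 (0.054) or N8 replicate 1 (0.0553).

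The MAP kinase feedback genes gave 4 of the 7 rises. The A30 arrays gave 5.99, 6.01 and 6.03 for DUSP5, against 4.29 to 5.59 in wild type, with a median of 5.10. For SPRY4 the values were 6.11, 6.17 and 6.10 in A30 and 4.65 to 5.88 in wild type, with a median of 5.14. DUSP4 read 6.68, 6.66 and 6.84 in A30 and 5.92 to 6.46 in the 9 wild-type arrays, with a median of 6.13. For all 3 the A30 arrays lay close together and above every wild-type array. The wild-type arrays of DUSP5 and the wild-type median of SPRY4 lay below the filter value of 5.6, so the sizes of these rises are uncertain. DUSP5 and DUSP4, nuclear phosphatases that switch off ERK, rose by 0.98 ± 0.24 (adjusted p = 0.0054) and 0.57 ± 0.15 (adjusted p = 0.00754). SPRY4 and SPRY2, inhibitors of signalling from receptor tyrosine kinases, rose by 0.91 ± 0.23 (adjusted p = 0.00572) and 0.46 ± 0.14 (adjusted p = 0.0154). The SPRY2 call was lost without A30 replicate 2 (adjusted p = 0.0521) and replicate 3 (adjusted p = 0.0937). SPSB4, an adaptor of a ubiquitin ligase, read 5.69, 5.61 and 5.84 against 6.0 to 6.49 (median 6.22) and fell by 0.50 ± 0.10 (adjusted p = 0.000763). The listed targets not called included the cell cycle gene CCND1 (0.07 ± 0.07) and the early-response gene EGR1, whose wild-type arrays ran from 5.57 to 8.02.

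**Figure D2:**
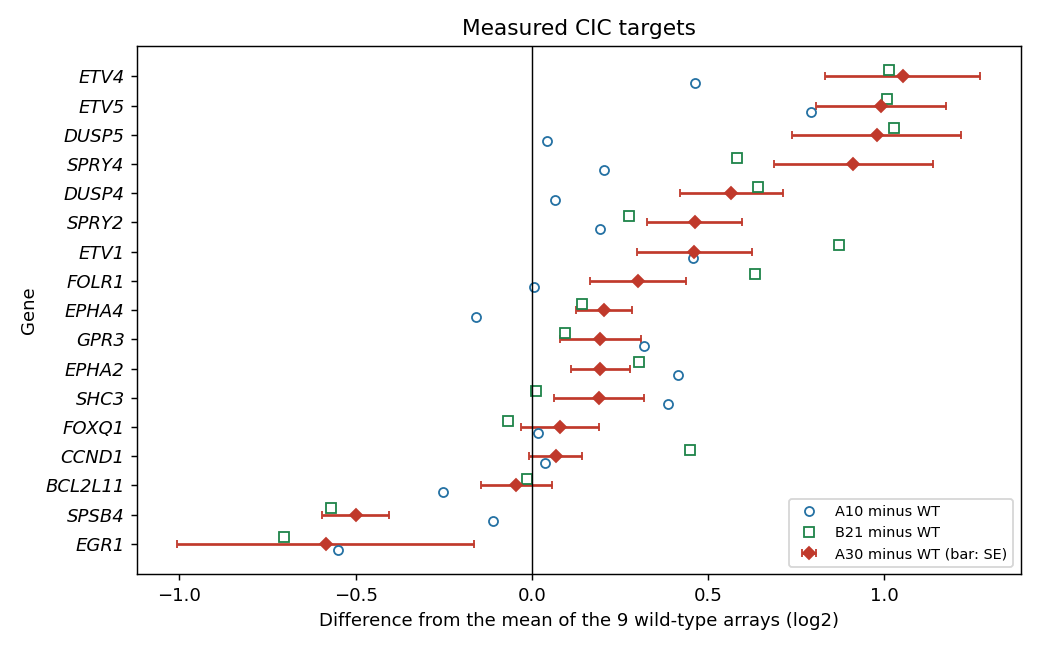
Difference from the mean of the 9 wild-type arrays (log2) of the 17 tested CIC targets in A30, with its SE as a bar, and in A10 and B21 as open points. ETV4, ETV5, DUSP5 and SPRY4 lie furthest right in A30, from 0.91 to 1.05, and EGR1 has the widest bar.

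CIC binds a short motif, and it was looked for in the promoters of these genes. The words searched were TGAATGAA, TCAATGAA, TGAATGGA and TCAATGGA on both strands, in the 300 bases from 250 before to 50 after each gene's start in RefSeq (GRCh38.p14). A word was present in 1053 of 27305 promoters (3.86%), in 180 of 7457 promoters of tested genes outside the region (2.41%), in 18 of 981 of those called higher (1.83%) and in 29 of 1249 of those called lower (2.32%). Among the measured CIC targets 1 of 11 with a promoter held one, the receptor tyrosine kinase EPHA2, whose difference was 0.19 ± 0.08 (adjusted p = 0.0929). UBASH3B, a phosphatase that acts on receptor tyrosine kinases, also held one. It was chosen after its values were seen and read 7.51, 7.56 and 7.69 in A30 against 6.60 to 7.02 (median 6.92) in wild type, a rise of 0.74 ± 0.09 (adjusted p = 2.27e-05). The stretches of 100 bases around the word are shown to place it relative to the gene start, with the word in capitals, on the strand of the gene. For UBASH3B the word TGAATGGA is on the opposite strand, so the capitals show its reverse complement, TCCATTCA. They lie at chr1:16156050-16156149 on the minus strand for EPHA2 and at chr11:122655658-122655757 on the plus strand for UBASH3B.
EPHA2: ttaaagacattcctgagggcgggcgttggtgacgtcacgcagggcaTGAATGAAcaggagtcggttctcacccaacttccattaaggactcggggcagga
UBASH3B: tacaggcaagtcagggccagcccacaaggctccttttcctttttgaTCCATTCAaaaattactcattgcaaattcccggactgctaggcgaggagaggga
A match is a description of letters and not a binding site.

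Of 24 listed early-response genes downstream of MAP kinase 19 were tested, 7 rose (36.8%, beside 12.9% of all tested genes), 2 fell (10.5%, beside 16.3%), and the median was 0.21. JUNB, an AP-1 transcription factor, read 7.22, 7.18 and 7.20 in A30 against 6.51 to 6.83 (median 6.74) in wild type and rose by 0.48 ± 0.06 (adjusted p = 2.7e-05). IER3, an early-response gene that limits apoptosis, rose by 0.73 ± 0.13 (adjusted p = 0.000344) and the zinc finger factor KLF6 by 0.37 ± 0.06 (adjusted p = 0.000183). ATF3, FOSL2, IER2 and KLF4 were the other rises, by 0.27 to 0.51. JUND and MYC fell.

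The 12 largest falls outside the region were taken by the same rule, with no overlap between A30 and wild-type arrays. The A30 arrays gave 5.10, 4.68 and 4.82 for PLXDC2, against 7.55 to 7.93 in wild type, with a median of 7.63. For GALNT13 the values were 4.15, 4.34 and 4.60 in A30 and 5.82 to 6.74 in wild type, with a median of 6.58. MYC read 6.55, 6.59 and 6.75 in A30 and 7.46 to 8.67 in the 9 wild-type arrays, with a median of 8.48. No A30 array reached the wild-type range for any of the 3. PLXDC2, a transmembrane protein with a plexin-like domain, fell by 2.85 ± 0.22, or 7.21-fold (adjusted p = 1.52e-07). GALNT13, which starts mucin-type O-glycans, fell by 2.12 ± 0.21 (adjusted p = 1.45e-06), and MYC, the growth-promoting transcription factor, by 1.70 ± 0.18 (adjusted p = 3.84e-06). The A30 arrays of PLXDC2 and GALNT13 lay below the filter value of 5.6, and the same held for CAPN6, ZNF804A, CADPS2, PLBD1 and SOX11, where signal was not checked against background, so the sizes of these falls are uncertain. MYC in A30 remained above that value.

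CAPN6, a calpain-family protein that binds microtubules and lacks protease activity, read 5.37, 5.37 and 5.31 in A30, against line means of 5.89 in parental cells, 6.88 in N4 and 8.34 in N8. Its difference was −1.69 ± 0.17 (adjusted p = 1.68e-06), and its size depended on the wild-type line, since N8 was far above the parental cells. DEPP1, a target of FOXO factors, read 6.42, 6.38 and 6.26 against 7.66 to 8.35 (median 8.07) and fell by 1.67 ± 0.14 (adjusted p = 4.43e-07). CADPS2, a protein of dense-core vesicle release, read 5.12, 5.19 and 5.31 against 6.22 to 7.07 (median 6.93) and fell by 1.61 ± 0.26 (adjusted p = 0.00019). PLBD1, a lysosomal phospholipase-like protein, read 4.17, 4.11 and 4.24 against 4.89 to 6.72 (median 5.69) and fell by 1.60 ± 0.20 (adjusted p = 2.05e-05), with wild-type line means from 5.03 in N8 to 6.63 in N4.

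LGR5, a receptor for R-spondins that amplifies Wnt signalling, stayed well above the filter value. It read 7.44, 7.19 and 7.49 in A30 and 8.58 to 9.06 (median 8.86) in the wild-type arrays, and fell by 1.47 ± 0.08, or 2.77-fold (adjusted p = 2.7e-09). The A30 and wild-type arrays were more than 1 log2 unit apart. The zinc finger genes ZNF804A and ZNF141 read 3.94, 4.0 and 4.21 and 5.88, 5.05 and 5.93 in A30 against 5.02 to 6.02 (median 5.82) and 6.69 to 7.83 (median 6.92) in wild type, and fell by 1.66 ± 0.10 (adjusted p = 6.81e-09) and 1.47 ± 0.15 (adjusted p = 3.4e-06). ZNF141 is on chromosome 4, outside the region that was kept apart.

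**Figure D3:**
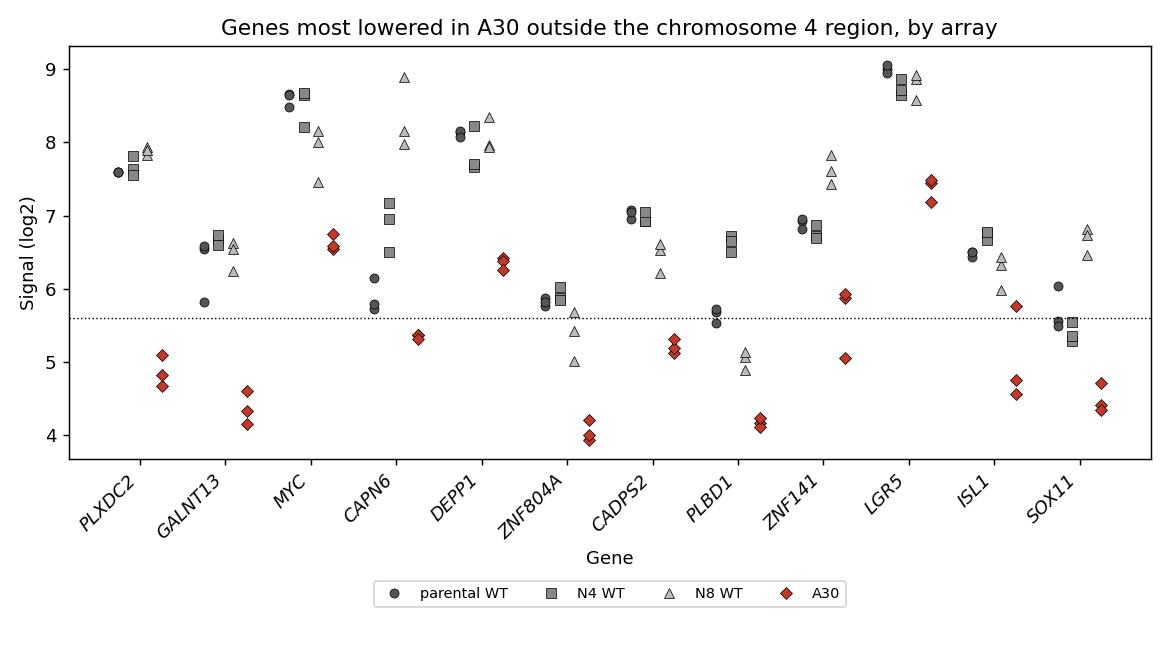
Signal (log2) of the 12 genes outside the chromosome 4 region with the largest falls in A30 whose 3 A30 arrays all lay below the 9 wild-type arrays, 1 point per array, with the filter value of 5.6 as a dotted line. The red A30 points of PLXDC2, GALNT13, CAPN6, ZNF804A, CADPS2, PLBD1 and SOX11 lie under the line, while those of MYC, DEPP1 and LGR5 lie over it.

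Of 28 listed neural and neurofilament markers 12 were tested, 8 were called lower (66.7%, beside 16.3% of all tested genes), 2 higher (16.7%, beside 12.9%), and the median difference was −0.52. The mean over the list was 6.41 to 6.44 in the A30 arrays and 6.82 to 7.13 in the wild-type arrays, with no overlap. On the measure that gave −0.52 in A30, the median difference was −0.41 in B21 and −0.26 in A10, so the list was lower in these lines too. SOX11, a transcription factor of immature neurons, read 4.42, 4.71 and 4.35 in A30 against 5.29 to 6.82 (median 5.56) in wild type and fell by 1.43 ± 0.15 (adjusted p = 2.9e-06). ISL1, a LIM homeobox factor of motor neurons, read 4.76, 5.76 and 4.56 against 5.99 to 6.77 (median 6.50) and fell by 1.46 ± 0.21 (adjusted p = 6.67e-05). Replicate 2 of A30 was the highest for ISL1 and still below every wild-type array. POU3F3, a POU-domain factor, read 6.23, 6.18 and 6.28 against 6.81 to 7.21 (median 6.85) and fell by 0.69 ± 0.08 (adjusted p = 5.17e-06). Its relative POU3F2 fell by 0.87 ± 0.14, the dendritic protein MAP2 by 1.01 ± 0.16, and SOX2, a factor of stem and neural precursor cells, by 0.43 ± 0.12. SOX3 and NES, nestin, rose, both by 0.42. In bulk RNA, fewer cells of a kind and less RNA per cell cannot be told apart.

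Epithelial markers rose in part. Of 24 epithelial junction and keratin markers 16 were tested, 4 rose (25%), 0 fell by limma (0 at an unadjusted p under 0.05), and the median was 0.13. KRT19, a keratin of simple epithelia, read 7.46, 7.71 and 7.48 against 6.02 to 6.73 (median 6.36) and rose by 1.18 ± 0.10 (adjusted p = 2.38e-07). The desmosomal genes DSP and DSC2 rose by 0.34 ± 0.05 and 0.44 ± 0.08. JUP, plakoglobin, rose by 0.25 ± 0.07, a call lost without A30 replicate 1 (adjusted p = 0.103). Of 18 fibroblast and mesenchymal markers 10 were tested, 3 rose (30%), 2 fell (20%) and the median was 0.12. SNAI1, a repressor of epithelial genes, rose by 0.46 ± 0.09 (adjusted p = 0.0011), and its relative ZEB1 by 0.32 ± 0.08, a call lost without A30 replicate 1 (adjusted p = 0.0543). PRRX1, a mesenchymal homeobox gene, fell by 0.37 ± 0.09, lost without A30 replicate 3 (adjusted p = 0.0519), and VIM, vimentin, gave −0.03.

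Of the 12 tested kidney markers 1 rose (8.33%) and 2 fell (16.7%), with a median of 0.02. JAG1, a Notch ligand also listed with that pathway, rose by 0.56 ± 0.08. OSR1 and SIX2, factors of nephron progenitors, fell by 0.40 ± 0.09 and 0.28 ± 0.07. The SIX2 call was lost without A30 replicate 1 (adjusted p = 0.0617). The mean of the kidney list was 6.66 to 6.72 in A30 and 6.59 to 6.79 in wild type. The 3 endothelial markers averaged 5.79 to 6.13 in A30 and 5.55 to 5.86 in wild type, and ESAM, an endothelial adhesion molecule, rose by 0.38 ± 0.08. The pair of tested leukocyte markers averaged 5.94 to 6.22 and 5.58 to 6.14, and the single keratinocyte marker, SFN, gave 6.71 to 6.87 and 6.19 to 7.31. None of these 3 was called. The part of these lists in the other results was not tested.

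The signalling lists are read beside the 12.9% of all tested genes called higher and 16.3% called lower. The shares higher and lower were 14.3% and 23.8% for Wnt genes, 16% and 24% for receptor tyrosine kinases and ligands, 21.4% and 17.9% for ephrins, semaphorins and slits, 33.3% and 26.7% for Notch genes, and 40% and 15% for TGF-beta and BMP genes. Of 33 Wnt genes 21 were tested, 3 rose, 5 fell, and the median was 0.01. FZD2, a Wnt receptor, read 6.54, 6.82 and 6.75 in A30 against 7.02 to 7.47 (median 7.25) in wild type and fell by 0.54 ± 0.08 (adjusted p = 0.000113). SFRP2, a secreted Wnt antagonist, and the co-receptor LRP5 fell by 0.33 and 0.29. SFRP2 lies on chromosome 4 after the region that was kept apart, where the median difference was −0.44. LEF1, a Wnt-responsive transcription factor inside the region, was also called lower. RNF43, a ubiquitin ligase that removes Wnt receptors, rose by 0.31 ± 0.07 (adjusted p = 0.00266), while LGR4, a relative of LGR5, and FZD6 rose by 0.32 and 0.22. The general feedback target AXIN2 gave 0.09 and was not called.

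In the TGF-beta and BMP list 20 of 40 genes were tested, 8 rose, 3 fell, and the median was 0.13. Among secreted members, the BMP antagonist CHRDL1 read 5.62, 5.35 and 5.35 in A30 against 6.40 to 7.62 (median 6.70) in wild type and fell by 1.42 ± 0.11 (adjusted p = 1.42e-07). The ligand BMP2 read 8.18, 8.0 and 8.05 against 6.29 to 7.76 (median 6.81) and rose by 1.09 ± 0.17 (adjusted p = 0.00012). BAMBI, a decoy receptor that dampens TGF-beta signals, read 8.84, 8.80 and 9.0 against 7.91 to 8.34 (median 8.11) and rose by 0.74 ± 0.09 (adjusted p = 1.89e-05). In each of the 3 the A30 and wild-type arrays were separate. Of the intracellular members, SMAD2, which carries TGF-beta signals, rose by 0.33 ± 0.07, SMAD4, the shared partner, by 0.27 and the inhibitor SMAD7 by 0.37. SMAD2, SMAD4 and SMAD7 all lie on chromosome 18, where 44.4% of tested genes were called higher, with a median difference of 0.22. With lines centred on 41 neighbouring genes SMAD2 gave 0.1 and was not called (adjusted p = 0.345). The part of the chromosome's shift in these rises was not tested.

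Of 19 Notch pathway genes 15 were tested, 5 rose, 4 fell, and the median was −0.05. The ligand JAG1 read 9.09, 8.95 and 8.85 in A30 against 8.24 to 8.68 (median 8.42) in wild type, and the receptor NOTCH1 read 7.62, 7.70 and 7.58 against 7.91 to 8.30 (median 8.06). JAG1 was thus higher in every A30 array and NOTCH1 lower, the latter by 0.47 ± 0.07 (adjusted p = 0.000145). Target genes moved both ways. HEY2 rose by 0.68 ± 0.05 (adjusted p = 1.71e-07), and HES4 fell by 0.57 ± 0.07 (adjusted p = 8.72e-06), both transcriptional repressors. NRARP, a feedback inhibitor of the pathway, fell by 0.79 ± 0.12.

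Among 40 ephrins, semaphorins, slits and their receptors 28 were tested, 6 rose, 5 fell, and the median was 0.03. SLIT2, a secreted guidance cue, read 10.11, 9.95 and 10.06 in A30 against 10.85 to 11.40 (median 11.10) in wild type and fell by 1.06 ± 0.15 (adjusted p = 7.52e-05). Its relative SLIT3 read 7.06, 6.42 and 6.58 against 5.78 to 6.19 (median 6.12) and rose by 0.65 ± 0.11 (adjusted p = 0.00029). Thus the slits went in opposite directions, and SLIT2 lies on chromosome 4 before the region that was kept apart. The netrin receptor UNC5C, inside that region, was called lower as well. EFNB2, an ephrin ligand, rose by 0.48 ± 0.09 (adjusted p = 0.00057), with 1 of its A30 arrays inside the wild-type range.

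Of 37 receptor tyrosine kinases and ligands 25 were tested, 4 rose, 6 fell, and the median was −0.02. ERBB4, a neuregulin receptor, read 5.92, 5.80 and 5.94 in A30 against 6.65 to 7.17 (median 6.81) in wild type and fell by 1.00 ± 0.11 (adjusted p = 3.99e-06). FGFR1, an FGF receptor, rose by 0.26 ± 0.06, and IRS2, an adaptor of the insulin receptor, by 0.32 ± 0.06. The ligand FGF2, inside the chromosome 4 region, gave −0.60 ± 0.06.

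Enzymes that build or cut extracellular sugars and proteins included several of the large falls. Of 34 glycosyltransferases of mucin, heparan and chondroitin chains 27 were tested, 4 rose (14.8%), 6 fell (22.2%), and the median was −0.02. CHSY3, a chondroitin synthase, read 4.51, 4.57 and 4.72 in A30 against 5.57 to 6.39 (median 6.0) in wild type and fell by 1.38 ± 0.20 (adjusted p = 9.08e-05). EXTL2, a heparan sulfate enzyme, fell by 0.70 ± 0.12 and GALNT7, another mucin-type transferase on chromosome 4, by 0.44 ± 0.05. Of 31 extracellular and surface peptidases 17 were tested, 2 rose (11.8%), 8 fell (47.1%), and the median was −0.24. Of the 17, 1 lies inside the chromosome 4 region, and the median of those outside it was −0.20. DPP4, a surface dipeptidase, read 5.45, 5.29 and 5.59 against 5.50 to 6.32 (median 5.81) and fell by 0.42 ± 0.07 (adjusted p = 0.000226). ADAM23, an ADAM family member without protease activity, fell by 0.46 ± 0.08, and MME, neprilysin, by 0.65. CPA4, a carboxypeptidase, rose by 0.76 ± 0.21. Of 28 exocytosis and synapse genes 11 were tested, 0 rose by limma (1 at an unadjusted p under 0.05), 2 fell (18.2%), CADPS2 and the calcium sensor SYT1 (−0.79 ± 0.09), and the median was 0.03.

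The growth lists had medians from −0.01 to 0.06. Of 22 MYC-network and nucleolar genes 14 were tested, 0 rose by limma (0 at an unadjusted p under 0.05) and 3 fell (21.4%), with a median of −0.01. Beside MYC itself the falls were MXD4, a MAX partner that opposes MYC and lies on chromosome 4 (−0.34 ± 0.07), and NOLC1, a nucleolar protein (−0.34 ± 0.10), whose call was lost without A30 replicate 1 (adjusted p = 0.113). NCL, nucleolin, gave −0.12 ± 0.05 (adjusted p = 0.091) and FBL, fibrillarin, 0.04. Of 30 S-phase genes 23 were tested, 4 rose (17.4%), 3 fell (13.0%) and the median was 0.06. MCM7, a subunit of the replicative helicase, read 9.94, 9.99 and 9.95 against 9.60 to 9.77 (median 9.65) and rose by 0.29 ± 0.05 (adjusted p = 0.000173). CDC45, its partner in the active helicase, rose by 0.33 ± 0.05. Of 30 G2 and mitosis genes 24 were tested, 2 rose (8.33%), 4 fell (16.7%) and the median was 0.00. Inside the chromosome 4 region were 2 of those falls, the checkpoint protein MAD2L1 (−0.38 ± 0.07) and cyclin A2, CCNA2 (−0.34 ± 0.10). The CCNA2 call was lost without A30 replicate 1 (adjusted p = 0.104).

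Of 20 unfolded protein and amino acid stress genes 12 were tested, 3 rose (25%), 1 fell (8.33%) and the median was 0.20. VLDLR, a lipoprotein receptor, read 7.82, 7.71 and 7.68 against 6.61 to 7.14 (median 6.93) and rose by 0.85 ± 0.08 (adjusted p = 1.64e-06). DDIT4, a stress-induced inhibitor of mTOR signalling, fell by 0.48 ± 0.09 (adjusted p = 0.000899). The other rises were ASNS, asparagine synthetase, and the pseudokinase TRIB3, by 0.39 ± 0.12 and 0.26 ± 0.08. Without A30 replicate 3 neither was called (adjusted p = 0.082 and 0.146), nor was ASNS without A30 replicate 2 (0.0734). Of 18 p53 targets 11 were tested, 1 rose (9.09%), 1 fell (9.09%) and the median was 0.03. GDF15, a stress cytokine, was higher (0.51 ± 0.13) and BBC3, a BH3-only protein, lower (−0.30 ± 0.08). Without A30 replicate 1 neither was called (adjusted p = 0.085 and 0.0885).

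Metabolic lists had medians between −0.06 and 0.06. Of 23 cholesterol synthesis genes 15 were tested, 3 rose (20%), 0 fell by limma (3 at an unadjusted p under 0.05) and the median was 0.06. HMGCS1, an early enzyme of the pathway, rose by 0.45 ± 0.07 (adjusted p = 0.00012), with A30 at 9.08, 9.07 and 9.14 and wild type at 8.03 to 9.12 (median 8.79). Of 19 hypoxia genes 11 were tested, 3 rose (27.3%), 3 fell (27.3%) and the median was 0.04, with ADM, adrenomedullin, higher by 0.63 ± 0.10 and NDRG1, a stress-response gene, lower (−0.94 ± 0.17). Of 31 oxidative phosphorylation genes 11 were tested, 2 rose (18.2%) and 4 fell (36.4%), and of 36 cytosolic ribosomal protein genes 20 were tested, 1 rose (5%) and 3 fell (15%). Both lists had a median of −0.06. COX4I1, a cytochrome oxidase subunit, gave −0.25 ± 0.05, and RPS6, a small-subunit protein, 0.26 ± 0.05. The ribosomal genes that fell were RPL34, inside the chromosome 4 region, RPL27 (−0.20 ± 0.07) and RPL6 (−0.13 ± 0.05). Without A30 replicate 1 neither RPL27 nor RPL6 was called (adjusted p = 0.326 and 0.0863), which leaves 1 fall, and 1 fall was also left without A30 replicate 2, parental replicate 1 or 2, N4 replicate 3, or N8 replicate 2 or 3. Ribosomal protein genes have many near-identical pseudogenes, so their signals are uncertain.

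Of 30 interferon-stimulated genes 8 were tested, 2 rose (25%), 3 fell (37.5%) and the median was 0.02. IFIH1, a sensor of double-stranded RNA, read 4.47, 4.15 and 4.03 in A30 against 4.82 to 6.14 (median 5.26) in wild type and fell by 1.24 ± 0.10 (adjusted p = 2.88e-07). Its A30 arrays and its wild-type median lay below the filter value of 5.6, so the size of this fall is uncertain. The ubiquitin ligases HERC6 and HERC5, inside the chromosome 4 region, gave −1.06 ± 0.10 and −0.43 ± 0.08. IRF9 and IRF7, interferon-signalling factors, rose by 0.27 ± 0.07 and 0.22. Without A30 replicate 2 neither was called (adjusted p = 0.0679 for IRF9), so no rise was left in the list.

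Some calls depended on which wild-type lines formed the reference. Without N8 the calls of OSR1 (adjusted p = 0.098), SDC1 (0.186), AXL (0.37), ASNS (0.177), RPS6 (0.418) and RBM17 (0.312) were lost. Without N4 those of LUM (0.202), ETV1 (0.069) and ANKRD1 (0.182) were lost, and without the parental cells those of JUP (0.105), TRIB3 (0.14), HDAC1 (0.0542), ETV1 (0.0627) and ANKRD1 (0.121). The 12 largest rises and 12 largest falls without overlap kept their calls under every alternative run. They had been picked from these same arrays as called and without overlap, so this is not independent support.

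The counts of called genes in several lists rested on single A30 arrays. Without A30 replicate 1 the falls dropped from 4 to 1 among matrix genes, from 3 to 1 among S-phase genes and from 4 to 2 among oxidative phosphorylation genes. The rises then dropped from 4 to 2 among receptor tyrosine kinases and ligands, from 4 to 2 among glycosyltransferases and from 3 to 1 among fibroblast and mesenchymal markers. Without A30 replicate 2 the matrix falls were again 1, the ribosomal falls 1 and the Notch rises 3. Leaving out A30 replicate 3 left 1 rise each among YAP and TEAD targets, stress genes and cholesterol genes. Some rises were lost entirely. They went from 2 to 0 among G2 and mitosis genes without A30 replicate 3. Oxidative phosphorylation genes went from 2 rises to 0 without A30 replicate 1 or 3, and interferon-stimulated genes without A30 replicate 2. With any 1 array left out, 5 to 8 CIC targets and 6 to 9 early-response genes were called higher, and 7 to 8 neural markers and 6 to 9 peptidases lower.

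MicroRNA genes outside the region gave 243 tested members, of which 24 were called higher (9.88%) and 4 lower (1.65%), beside 13.1% and 15.3% of all genes there. Their median difference was 0.13. The array values are of RNA hybridised to probe sets carrying the gene's symbol, and mature and precursor RNA were not told apart. The microRNAs named here were chosen after their values were seen. MIR221 and MIR222 are neighbours on the X chromosome, and their main mature strands share a seed, the bases 2 to 8 that pair with target RNAs, shown in capitals. MIR218-1 lies within the gene SLIT2. The sequences are from RefSeq (GRCh38.p14) and are shown to compare the seeds.
hsa-miR-221-3p: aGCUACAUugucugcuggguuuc
hsa-miR-222-3p: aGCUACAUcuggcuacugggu
hsa-miR-218-5p: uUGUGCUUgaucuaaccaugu
They lie at chrX:45746180-45746202 and chrX:45747036-45747056 on the minus strand and at chr4:20528299-20528319 on the plus strand.

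MIR221 read 8.75, 8.46 and 8.87 in A30 against 7.20 to 8.46 (median 8.06) in wild type and rose by 0.86 ± 0.16 (adjusted p = 0.000598), with the lowest A30 array level with the highest N8 array. MIR222 read 7.65, 6.07 and 6.23 against 5.51 to 6.78 (median 5.91), and its difference of 0.65 ± 0.33 was not called (adjusted p = 0.147). Replicate 1 of A30 was far above replicates 2 and 3, and replicate 1 was also the highest array within each wild-type line. MIR218-1 read 6.62, 5.98 and 6.31 in A30 against 7.0 to 7.83 (median 7.18) in wild type and fell by 1.05 ± 0.25 (adjusted p = 0.00421), beside a fall of 1.06 ± 0.15 in its host gene SLIT2. Of the 4 microRNA genes called lower, 3 are on chromosome 4, MIR218-1 among them. MIR23C rose by 1.12 ± 0.27 and MIR4521 by 0.82 ± 0.23. The first call was lost without A30 replicate 1 (adjusted p = 0.0571) and the second without A30 replicate 3 (adjusted p = 0.0866).

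A30 was then set against the other lines labelled ATXN1L-KO. Over all tested genes A30 differed from A10 in 21.9% and from B21 in 9.8%. Outside the region A30 was higher than A10 in 975 genes and lower in 1042, and higher than B21 in 257 and lower in 595. The count against B21 was 852 with all arrays, 527 without A30 replicate 1 and 557 without A30 replicate 2. These comparisons share the A30 arrays. The difference between the 2 counts was not tested.

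All 12 of the largest rises without overlap were also called higher than in A10, and 2 of them, MAP7D2 and LINC00673, were called higher than in B21. The genes were chosen on the A30 arrays, which enter these comparisons too. TNC was above A10 by 1.41 (adjusted p = 2.72e-07) and differed from B21 by −0.35 (adjusted p = 0.0368). FN1 was above A10 by 1.08 (adjusted p = 0.00439) and gave −0.28 ± 0.24 against B21 (adjusted p = 0.541). SHISA2 was above A10 by 1.38 (adjusted p = 1.34e-09) and gave 0.04 ± 0.07 against B21. KRT19 was above A10 by 1.5 (adjusted p = 5.24e-07) and gave −0.06 ± 0.12 against B21. Of the CIC targets, DUSP5 was above A10 by 0.93 (adjusted p = 0.0306), ETV4 gave 0.59 ± 0.27 (adjusted p = 0.132) and ETV5 0.20 ± 0.23 (adjusted p = 0.59). Against B21 these 3 gave −0.05, 0.04 and −0.02.

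Some genes separated A30 from both other lines. TCEAL7, a member of a family of elongation-factor-like proteins, read 5.70, 4.93 and 5.92 in A30, with means of 7.64 in A10 and 6.87 in B21 and 6.32 to 7.72 (median 6.79) in wild type. It differed from A10 by −2.13 (adjusted p = 4.46e-06) and from B21 by −1.35 (adjusted p = 0.000608). ZNF804A differed from A10 by −1.20 (adjusted p = 5.49e-06) and from B21 by −1.52 (adjusted p = 2.58e-06). CTSO, a lysosomal cysteine protease on chromosome 4 after the region, read 4.62, 4.41 and 4.92 in A30 and differed from A10 by −1.47 (adjusted p = 6.94e-06) and from B21 by −1.16 (adjusted p = 0.000131). MYC was lower than in both, with differences of −0.75 (adjusted p = 0.022) and −0.99 (adjusted p = 0.00788). LGR5 was lower too, with −0.57 (adjusted p = 0.000445) and −0.75 (adjusted p = 0.000124). PLXDC2, the largest fall against wild type, gave −0.24 ± 0.27 against A10 (adjusted p = 0.584) and differed from B21 by −1.68 (adjusted p = 0.000787).

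The 3 largest differences upward against the mean of A10 and B21 were in CCL2, MAP7D2 and PAMR1. CCL2, a chemokine for monocytes, read 6.41, 6.69 and 7.13 in A30, with means of 4.82 in A10, 5.74 in B21, 4.73 in parental cells, 4.24 in N4 and 6.55 in N8. A30 was above A10 by 1.92 (adjusted p = 0.000319), and above B21 by 1.0 without passing the test (adjusted p = 0.0508). Its level in A30 overlapped N8, so the called difference of 1.57 ± 0.25 from wild type rested on the parental cells and N4. MAP7D2 was above A10 by 1.46 (adjusted p = 6.46e-05) and above B21 by 0.75 (adjusted p = 0.022). PAMR1 was above A10 by 1.85 (adjusted p = 4.89e-08) and gave 0.24 ± 0.12 against B21 (adjusted p = 0.246).

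Calls were also counted by chromosome, with chromosome 4 first. The region of 75 to 146 Mb was chosen because it was low in A30, so its values are a description with no test. Of its 213 genes 125 were tested, 123 lay below the wild-type mean, 116 were called lower and 0 higher by limma (0 at an unadjusted p under 0.05), and 92 had all A30 arrays below all wild-type arrays. The median difference was −0.51, with quartiles at −0.67 and −0.38. Each A30 array showed it, with medians of −0.53, −0.62 and −0.43, while single wild-type arrays ran from −0.09 to 0.12, and A10 and B21 gave −0.02 and −0.06. Genes above a wild-type mean of 6.65 and those below it gave medians of −0.52 and −0.49.

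The largest falls in the region were in CLGN, ENPEP, SEPTIN7P14, TBCK, PPA2 and TRAM1L1. CLGN, calmegin, a chaperone of the endoplasmic reticulum, read 5.82, 5.62 and 5.84 in A30 against 7.23 to 7.69 (median 7.48) in wild type, a difference of −1.71 ± 0.07. ENPEP, aminopeptidase A, which cleaves angiotensin, read 4.87, 5.21 and 5.04 against 6.29 to 6.92 (median 6.68), a difference of −1.63 ± 0.09. TBCK, a regulator of Rab proteins, and PPA2, the mitochondrial inorganic pyrophosphatase, gave −1.12 ± 0.08 and −1.10 ± 0.10. TRAM1L1, a relative of a protein translocation factor, gave −1.06 ± 0.11, and SEPTIN7P14, a pseudogene whose signal may come from near-identical copies, −1.35 ± 0.13. These 6 stood well below the median of the region. Members of the pathway lists in the region included LEF1, a Wnt-responsive transcription factor, at −0.70 ± 0.07, UNC5C, a netrin receptor, at −0.84 ± 0.08, FGF2 at −0.60 ± 0.06 and SMAD1, which carries BMP signals, at −0.33. EGF, also listed, was not lower.

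The 9 tested genes of the region that were not called had a median wild-type level of 5.91, against 7.40 for those called. The highest differences were in EGF (0.01), the neurogenic factor NEUROG2 (0.01), MIR4450 (−0.02) and BBS12 (−0.09), a chaperonin-like gene of cilia. EGF, a growth factor, read 5.61, 5.50 and 5.50 in A30 against 5.33 to 5.98 (median 5.52) in wild type, and NEUROG2 5.35, 5.82 and 5.77 against 5.16 to 6.06 (median 5.74). Both sat close to the filter value in every group. ANXA3, an annexin, and LINC01061 were well above it, at differences of −0.23 ± 0.13 for each.

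The low values did not stop at the bounds. Just inside the start, THAP6, CDKL2 and G3BP2 gave −0.58, −0.67 and −0.63, and just outside, PARM1 and MTHFD2L gave −0.73 and −0.54, and CXCL2 gave 0.14. Just inside the end, SMAD1, MMAA and ZNF827 gave −0.33, −0.55 and −0.80, and just outside, TMEM184C, PRMT9 and ARHGAP10 gave −0.44, −0.41 and −0.70. On the rest of chromosome 4, 137 of 220 tested genes were called lower (62.3%) and 3 higher, with a median of −0.32. Before the region 86 of 157 genes were lower and the median was −0.26, and after it 51 of 63 were lower and the median was −0.44. The genes counted outside the region therefore include chromosome 4 genes that were low as well. Without any of chromosome 4, 1250 genes were called higher and 1330 lower among 9341.

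**Figure D4:**
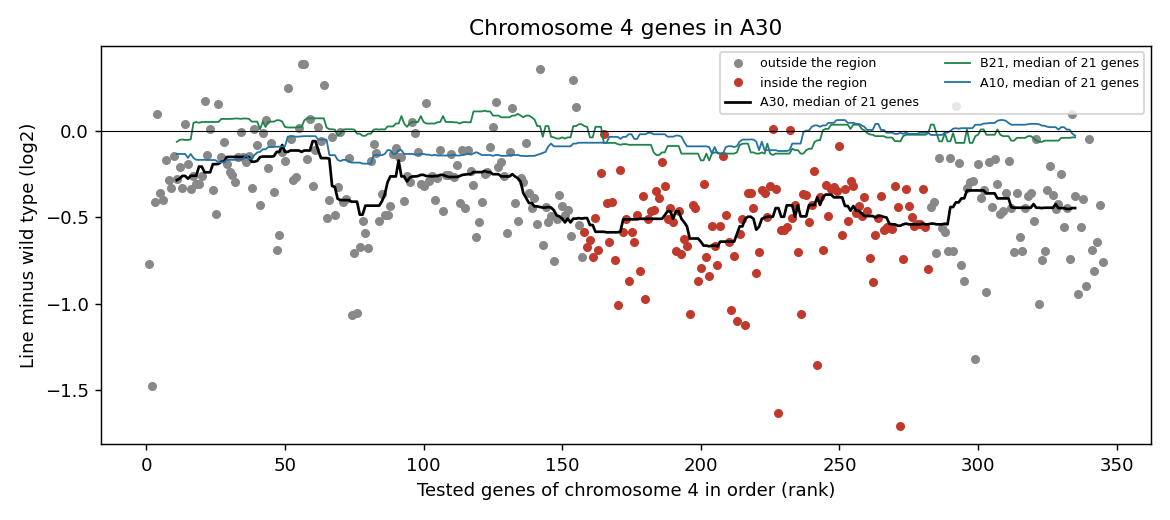
Difference of A30 from the mean of the 9 wild-type arrays (log2) for each tested gene of chromosome 4 in order, in red inside the region and grey outside, with running medians of 21 genes for A30, A10 and B21. The A30 line stays below 0 along the chromosome and is lowest in the region, where the lines of A10 and B21 stay near 0.

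Other chromosomes had smaller shifts. The share called higher was 44.4% of 144 genes on chromosome 18, with a median difference of 0.22, 30.9% on chromosome 21 with a median of 0.17, and 26.8% of 770 genes on chromosome 19 with a median of 0.12. The share called lower was 35.6% on chromosome 14 and 32.1% on chromosome 15, with medians of −0.11 and −0.12. A30 replicates 1, 2 and 3 gave medians of 0.20, 0.14 and 0.25 on chromosome 18 and −0.11, −0.17 and −0.08 on chromosome 15. On chromosome 21 A10 and B21 had medians of 0.18 and 0.14, close to that of A30, and on chromosome 18 they had 0.00 and 0.17.

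Within chromosomes, runs were read as the lowest and highest median of 41 neighbouring tested genes, and are thus a description with no test. On chromosome 14 the run from TMED8 to PAPOLA had a median of −0.41, with 40 of 41 genes below the wild-type mean and 37 called lower, while A10 and B21 gave 0.01 and −0.05. The lowest runs on chromosome 3 (ANAPC13 to LOC646903) and chromosome 15 (HERC2P3 to GPR176) had medians of −0.31 and −0.27. The highest run on chromosome 18, from KC6 to PHLPP1, had a median of 0.32 in A30, 0.00 in A10 and 0.27 in B21, and that on chromosome 11, from RRM1 to SOX6, had 0.26, −0.02 and 0.18. With each line centred on its 41 neighbours, 846 genes were called higher and 1042 lower outside the region. The DNA copy number of the lines was not measured here, and its part in these runs was not tested. Named genes whose calls were lost under that centring include GALNT7 (adjusted p = 0.804), SMAD2 (0.345), MXD4 (0.133), SPSB4 (0.115), RPS6 (0.971), COX4I1 (0.239) and CALD1 (0.117).

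**Figure D5:**
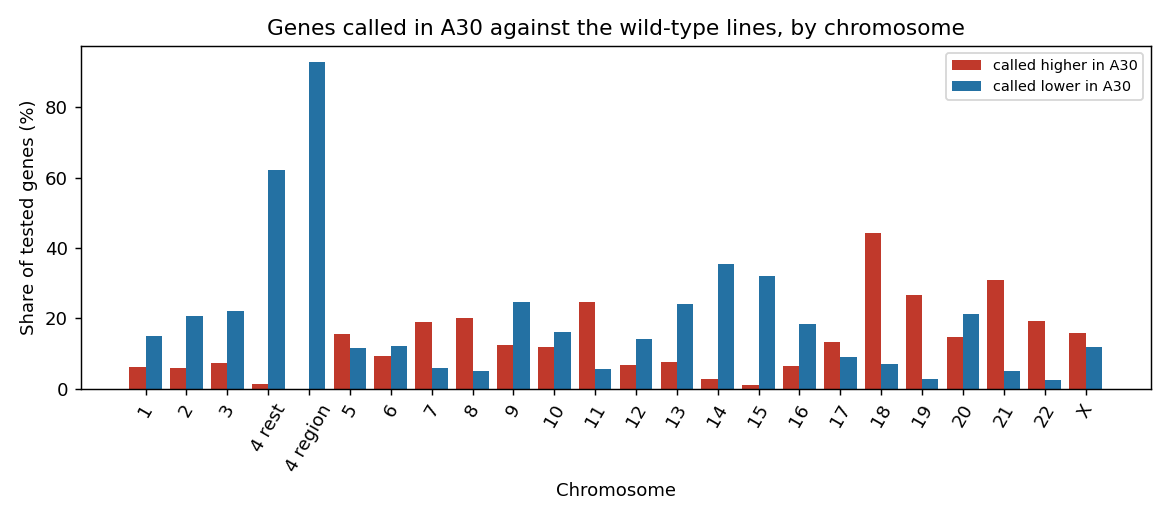
Share of tested genes (%) called higher (red) or lower (blue) in A30 against the wild-type lines on each chromosome, with the chromosome 4 region shown apart from the rest of that chromosome. The lower share is 92.8% in the region and 62.3% on the rest of chromosome 4, and the higher share is largest on chromosome 18 at 44.4%.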

How the data were processed

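RNA, extracted with the Qiagen miRNeasy kit per the labels, was hybridised to Affymetrix arrays. Per the submitters' processing notes the authors used Affymetrix Expression Console. Its version and normalisation method are not recorded in the labels. The deposited values, 1 per probe set and array, spanned 0.57 to 14.84, from which the log2 scale was inferred. They were used unchanged, with a pseudocount of 0. The precision is set by how many arrays a line has.

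Of 53617 probe sets, 16098 carried 1 gene symbol, 0 several and 37519 none. These stood for 14884 genes. Where a gene had more than 1 probe set (779 genes), that of highest mean signal over the 18 arrays was kept. Genes with at least 3 arrays above 5.6, the 40th percentile, were tested. Positions came from RefSeq (GRCh38.p14).

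All 18 arrays were fitted with limma 3.58.1 in R 4.3.3, with 1 mean per line, and A30 was compared with the mean of the wild-type lines. Tests were two-sided and adjusted over all 9686 genes, with a threshold of 0.05. The fit was also run on simulated data with independent noise between arrays and changes planted in A30. That simulation held no other differences between lines, so it does not cover differences between clones. The numbers of replicates are the labels' own, and cultures are the unit.

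The rule for naming took ATXN1L, ATXN1 and CIC, the 12 largest rises and falls outside the region with no overlap, the 6 largest falls and 4 highest differences inside it, up to 4 members of each of 32 lists by smallest p, and the 3 largest differences each way from A10 and B21. Other list members, the microRNAs, UBASH3B and genes at the edges of the region or of runs fall outside that rule and were picked once their values had been seen. The members and lists were chosen with earlier results of these data known. Alternatives covered the filter, normalisation, probe set choice, variance model, arrays, reference lines, replicate term, thresholds and neighbour centring. Leaving out A10 replicate 1 and all of chromosome 4 was added after seeing the data. Tables were handled with pandas 2.3.3 and numpy 2.4.6 and drawn with matplotlib 3.10.9.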

Additional observations from a re-analysis of the deposited data

Results flagged for a closer look

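Of the genes taken by the naming rule outside the chromosome 4 region, 21 differed in A30 from both A10 and B21, in the same direction and each past the limma threshold. As A30 minus the mean of A10 and B21 (log2), the 4 that were higher were MAP7D2 at 1.10, LINC00673 at 0.88, ESAM at 0.49 and MCM7 at 0.36. The 17 that were lower were led by TCEAL7 at −1.74, ZNF804A at −1.36, CTSO at −1.32, ZNF141 at −1.20, DEPP1 at −1.19, GALNT13 at −0.98, IFIH1 at −0.93, MYC at −0.87 and SLIT2 at −0.83. The others were LUM at −0.77, ERBB4 at −0.67, LGR5 at −0.66, GALNT7 at −0.57, DPP4 at −0.56, ADAM23 at −0.45, UCHL1, a neuronal ubiquitin hydrolase, at −0.36, and CENPA, the centromeric histone, at −0.27. Of these, CTSO, ZNF141, SLIT2, GALNT7 and UCHL1 lie on chromosome 4.

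The probe sets without a gene symbol were not used in the comparisons. Of 14000 that passed the same filter, 1825 (13%) differed between A30 and the wild-type lines, 682 higher and 1143 lower.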

How the results depend on the processing

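Of 4144 values of the 161 named genes under the alternatives, 3925 kept their direction and their side of the threshold, 146 lost a call and 31 gained one. In 36, from CIC, EGF, ERG, MIR4450, NEUROG2, SPI1 and BBS12, the sign changed with no call before or after. The other 6 changed sign with a call before or after, each with lines centred on 41 neighbouring genes, which removes the region's own shift: BBS12 became 0.38, MIR4450 0.50, MAD2L1 0.05, CCNA2 0.13, HERC5 0.12 and RPL34 0.21. The medians of the 32 lists moved by more than the SD of the A30 arrays in 80 of 830 values. Other causes were not tested.

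Stricter thresholds lowered the counts by construction. At an adjusted p under 0.01 they were 719 higher and 939 lower outside the region for A30 against wild type, 1200 against the parental cells, 1171 against N4, 1424 against N8, 1094 against A10 and 356 against B21, and 16 for N4 and 575 for N8 against the parental cells and 552 for N8 against N4. With at least 1.5-fold they were 94, 183, 368, 345, 408, 329, 125, 12, 183 and 182, and 43 lower inside the region. The A30 line mean lay beyond all 3 wild-type line means for 3074 genes upward and 2880 downward. Neighbour centring gave 19 lower inside the region, 1394 against the parental cells, 1352 against N8, 1095 against A10, 356 against B21, 21 for N4 and 453 for N8 against the parental cells and 474 for N8 against N4. Without a filter, N4 differed from the parental cells in 26 genes.

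With a replicate block the counts were 1609 higher and 1741 lower outside the region, 1337 against B21, 161 for N4 and 2114 for N8 against the parental cells. A term for replicate 1 gave 1316 against B21 and 167 for N4 against the parental cells. Same-numbered arrays correlated at 0.00 to 0.51, not all above 0.1, so the numbers do not establish pairs.

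Leaving out 1 array gave 913 to 1387 higher and 1039 to 1574 lower genes outside the region, 106 to 117 lower inside, 1557 to 2218 against A10, 527 to 1037 against B21, 9 to 114 for N4 and 860 to 1655 for N8 against the parental cells and 782 to 1582 for N8 against N4. Quantile normalisation moved the split to 1448 higher and 1460 lower. Signals under the filter value of 5.6 were not checked against background, which limits the folds of genes that low.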
